A study of Rattus norvegicus with 24 samples.

Results

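The genes described are 10 transcription factors and secreted signals of the hair matrix, the dividing epithelium at the base of the hair follicle. The members were taken by symbol from a deposited table of 17711 rows. A row was found for 9 of them, and Hoxc13 was not analysed here. The RNA came from whisker follicles and from the striatum of male Sprague-Dawley rats that pressed a lever for methamphetamine (MA group) or for saline (SA group). MA rats received 0.05 mg/kg of the drug, dissolved in saline, per intravenous infusion in daily sessions of 2 h for 16 days, and SA rats received saline under the same schedule. All rats had first been trained to press for food, only those that learned the lever were used, and all had undergone surgery. Their age is not given. Each group held 6 rats, which gives 12 libraries from the whisker follicle and 12 from the striatum. Whisker follicles are mixtures of cell types, so fewer cells of a type and less RNA per cell cannot be told apart.

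Hair shaft cells arise from the matrix, which surrounds a small cluster of mesenchyme, the dermal papilla. Wnt signals act through beta-catenin and its DNA-binding partner Lef1, BMP signals act through Smad proteins, and sonic hedgehog (Shh) is secreted by matrix cells. Downstream of these signals, the factors Msx2, Dlx3, Foxn1 and Hoxc13 act in the programme that switches on the keratin genes of the hair shaft. Foxn1 is the gene disrupted in the hairless nude mouse and rat.

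The promoters of Foxn1, Lef1 and Bmp4 are shown because they are 3 of the 4 members that differed most between MA and SA rats. Each sequence is the 250 bases upstream of the gene's start in RefSeq (assembly GRCr8), written 5′ to 3′ on the gene's strand, and capitals mark the motif described next.
Foxn1, chr10:63771772-63772021, minus strand: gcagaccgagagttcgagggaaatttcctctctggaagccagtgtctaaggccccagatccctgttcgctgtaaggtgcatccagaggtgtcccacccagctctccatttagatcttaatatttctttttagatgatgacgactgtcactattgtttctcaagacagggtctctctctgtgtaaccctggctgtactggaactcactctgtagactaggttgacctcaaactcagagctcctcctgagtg
Lef1, chr2:222340463-222340712, plus strand: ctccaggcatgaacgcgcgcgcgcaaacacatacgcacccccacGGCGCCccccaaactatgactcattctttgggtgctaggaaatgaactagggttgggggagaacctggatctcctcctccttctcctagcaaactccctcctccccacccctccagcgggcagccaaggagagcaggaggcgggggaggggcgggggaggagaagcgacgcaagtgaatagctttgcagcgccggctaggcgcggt
Bmp4, chr15:22101934-22102183, minus strand: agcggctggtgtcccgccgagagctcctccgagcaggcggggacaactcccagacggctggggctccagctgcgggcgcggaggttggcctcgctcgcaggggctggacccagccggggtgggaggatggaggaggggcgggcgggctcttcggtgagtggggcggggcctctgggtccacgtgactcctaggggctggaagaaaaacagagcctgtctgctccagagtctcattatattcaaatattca

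RefSeq promoters were matched for 5 of the 10 members, namely Bmp4, Msx1, Msx2, Foxn1 and Lef1, out of 33469 promoters in all. Both strands were searched for 4 motifs, no 2 of which overlapped in a member window. The motif GGCGCC, a palindrome bound by Smad proteins downstream of BMP, lay in 8.69% of all promoters and in 1 of the 5 members, that of Lef1. The TCF/LEF letters CTTTGAT were found in 3.15% of all promoters. The homeodomain letters TAATTG were found in 7.31% and the TATA box letters TATAAA in 12.9%. None of these was found in the 5 member windows. The share of G and C was 66.4% for Bmp4, 71.2% for Msx1, 67.6% for Msx2 and 63.2% for Lef1, all above the middle range of 44% to 60% of all promoters. The Foxn1 window, at 48.8%, lay within that range. A match of letters describes the sequence and was not tested as a binding site.

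Levels are given in FPKM, the fragments of a row divided by transcript length and by the mapped fragments of its library, so genes can be compared per length. In the whisker follicle, the mean over 12 libraries was highest for Dlx3 (221 ± 86.8 FPKM, SD, n = 12), followed by Msx2 (172 ± 48.7), Bmp4 (74.6 ± 38.6), Foxn1 (56.9 ± 53.7), Bmp2 (13.1 ± 10.5), Lef1 (8.02 ± 7.09), Msx1 (3.08 ± 1.11), Shh (0.473 ± 0.290) and Wnt10b (0.452 ± 0.218). Only the steps from Msx2 to Bmp4 and from Msx1 to Shh exceeded the spread, in that the ranges of mean ± SD did not overlap. Among the 9138 rows with a mean of at least 1 FPKM, the level of Dlx3 stood at percentile 94.6, Msx2 at 93.3, Bmp4 at 85.8, Foxn1 at 82.4, Bmp2 at 52.6, Lef1 at 40.8 and Msx1 at 19.1. Factors and signals were both spread over the range, from Dlx3 to Msx1 and from Bmp4 down to Shh and Wnt10b, which fell below the 1 FPKM required for the test across all genes.

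The levels of other cell types were measured in the same libraries. The summed FPKM of 8 inner root sheath genes, the layer that moulds the hair, ran from 18866 to 34439 in SA and from 14447 to 27340 in MA. Of 14 dermal papilla genes, 2 reached a mean of 1 FPKM, Crabp1 and Lef1 itself, while Rspo3 was listed at 0 in all 12 libraries and Alpl, Sox2 and Corin had medians of 0.0918, 0.0952 and 0 FPKM. None of 8 endothelial genes reached it, and Cdh5 was listed at 0 throughout. The division markers Mki67 (0.608 in SA and 0.449 in MA on average) and Top2a (0.554 and 0.740) also lay below 1 FPKM, while 11 of 17 cell cycle genes reached it, among them Pcna (51.7 and 53.5) and Cdk1 (7.18 and 8.93). Genes of hair-forming epithelium were thus high and most dermal papilla genes low.

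The low values of the table stepped in whole multiples of what 1 fragment is worth in a library, and the inverse of that worth is called relative depth here. It follows sequencing depth only if values were not scaled between libraries, which is not known. Setting SA library 0 to 1, the relative depth of the other follicle libraries ran from 0.723 to 1.34 in SA and from 0.803 to 1.51 in MA. A fragment was worth 2.54 times as much FPKM in follicle SA library 0 as in striatum SA library 0. Summed FPKM also differed, at 1005810 to 1524570 in follicle SA and 348717 to 371477 in striatum SA libraries. Whether this reflects depth or scaling was not tested. Libraries are named by the index of their column, 0 to 5, which is not tied to a rat number. SA library 0 stood apart from the other SA libraries: it was the highest of all 12 for 4 of 7 members tested and among the top 3 for 6 of 7. Its relative depth was in the middle of the range. SA library 5 was the lowest of all 12 for all 7, and it also had the highest summed level of 10 striatal neuron genes, 25.7 FPKM against 2.38 to 6.10 in the MA libraries, with Penk, a peptide gene of striatal neurons, at 6.43 FPKM against a follicle median of 0.136. Results are therefore given with and without SA library 0, a choice made after the values were seen. That library was chosen for its high values of these same members, so calls and p-values without it only describe the remaining libraries.

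The first question was whether the hair matrix genes differed between MA and SA rats in the whisker follicle. On log2(FPKM + 1), all 7 members tested lay above 0 (MA minus SA), with a median difference of 1.03, against 48.3% of all 9138 rows above 0 and a median of -0.0094 over all rows. No member was differentially expressed, that is, had an adjusted p under 0.05 with a fold of at least 1.5 in limma, and neither was any other row (0% of 9138, 0 genes, with 953 at an unadjusted p under 0.05). Without SA library 0, 4 of the 7 members (Foxn1, Lef1, Bmp2 and Bmp4) passed that threshold as higher in MA, where 7.41% of the 9059 rows tested did so as higher and 13.5% in either direction. Only SA library 0 had this influence on the members: leaving out any of the other 11 follicle libraries left 0 of 7 called. Fold changes on this scale understate those of low genes.

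**Figure D1:**
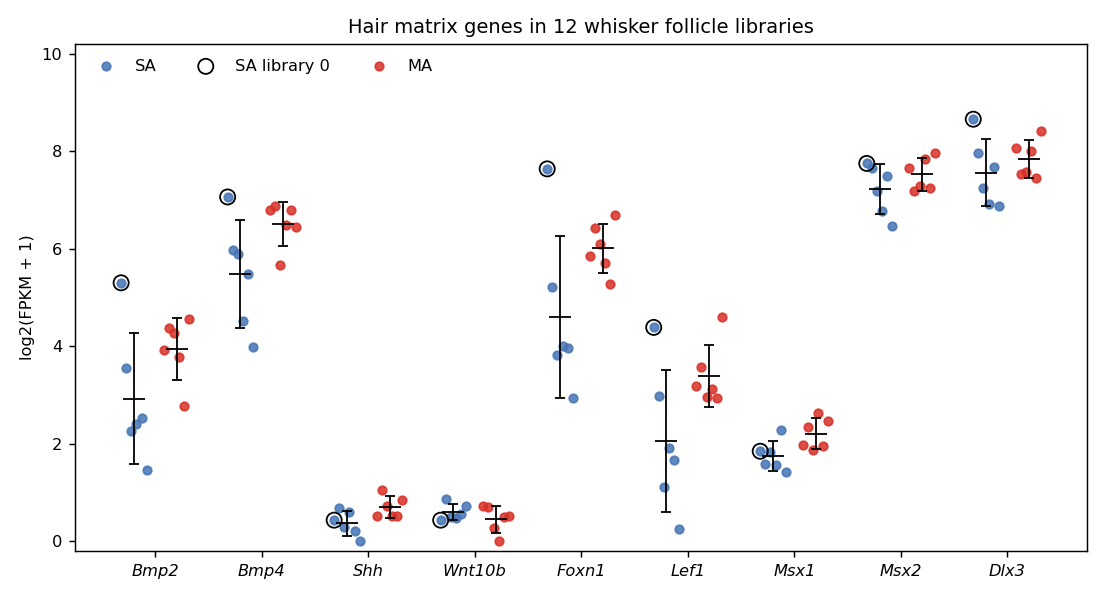
Level of 9 hair matrix genes as log2(FPKM + 1) in each whisker follicle library, with SA in blue, MA in red and SA library 0 ringed, black bars show the mean and SD of 6 libraries. For Foxn1, MA libraries sit between 37.8 and 102 FPKM, above all SA libraries but the ringed one at 198 FPKM.

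Foxn1, the factor lost in nude animals, showed the largest difference on log2(FPKM + 1), while with a pseudocount of 0.1 or 0.5 that of Lef1 was larger (1.86 against 1.48 and 1.56 against 1.45). Its FPKM ranged from 6.62 through a median of 14.8 to 198 in SA and from 37.8 through 62.2 to 102 in MA. SA library 0 held the 198, which was 5.51 times the next SA value of 36.0, and once it was left out the MA and SA libraries no longer overlapped. The log2 fold change was 1.42 ± 0.62 (SE, n = 6 and 6, limma adjusted p = 0.465), and the exact permutation test over the 924 assignments of libraries, two-sided, gave p = 0.0714. Leaving out SA library 0 gave 2.03 ± 0.34 (limma adjusted p = 0.0150) and an exact permutation p of 0.00216, the smallest that 462 assignments can give. As the library left out held the highest Foxn1 value, these p-values are no test of a difference. Separation of this kind was seen in 2.65% of all rows as higher in MA without that library, and in 0.197% with all 12.

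Lef1, the partner of beta-catenin, followed the same pattern at a lower level. Its FPKM ran from 0.187 to 19.9 in SA (median 2.45) and from 6.71 to 23.1 in MA (median 7.86). The groups overlapped through SA library 0, at 19.9, and narrowly through SA library 1, at 6.86 FPKM, which lay above MA libraries 2 and 4. The log2 fold change was 1.35 ± 0.57 (SE, n = 6 and 6, limma adjusted p = 0.465, exact permutation p = 0.0628). It was 1.81 ± 0.43 (limma adjusted p = 0.0205, exact permutation p = 0.00649) without SA library 0.

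Among the secreted signals, the ligands Bmp2 and Bmp4 differed by similar amounts. Bmp2 ran from 1.76 to 38.4 FPKM in SA libraries (median 4.54) and from 5.87 to 22.5 FPKM in MA libraries (median 16.3). Bmp4 ran from 14.9 to 133 FPKM (median 51.2) and from 49.6 to 117 FPKM (median 99.2), respectively. For both ligands the highest value of all 12 libraries was again that of SA library 0, and the other SA libraries overlapped with the MA range through the lowest MA library. The log2 fold change of Bmp2 was 1.03 ± 0.54 (SE, n = 6 and 6, limma adjusted p = 0.465, exact permutation p = 0.130) and rose to 1.504 ± 0.36 (limma adjusted p = 0.0211, exact permutation p = 0.0108) without SA library 0. For Bmp4 it was 1.03 ± 0.43 (limma adjusted p = 0.465, exact permutation p = 0.0649) and 1.34 ± 0.35 (limma adjusted p = 0.0246, exact permutation p = 0.00866). Bmp4 exceeded Bmp2 in all 12 libraries, by 3.45 to 15.6 times in SA and by 2.71 to 18.8 times in MA.

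The calls of Bmp2 and Bmp4 were lost when SA library 5, the lowest library, was left out together with SA library 0 (limma adjusted p = 0.0531 and 0.0586), while Foxn1 (adjusted p = 0.0356) and Lef1 (0.0488) stayed differentially expressed. With SA library 0 kept and SA library 5 left out, the log2 fold changes fell to 1.08 for Foxn1, 0.99 for Lef1, 0.74 for Bmp2 and 0.73 for Bmp4, with a limma adjusted p of 0.805 for each. The part of the striatal neuron genes of SA library 5 in these values was not tested.

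**Figure D2:**
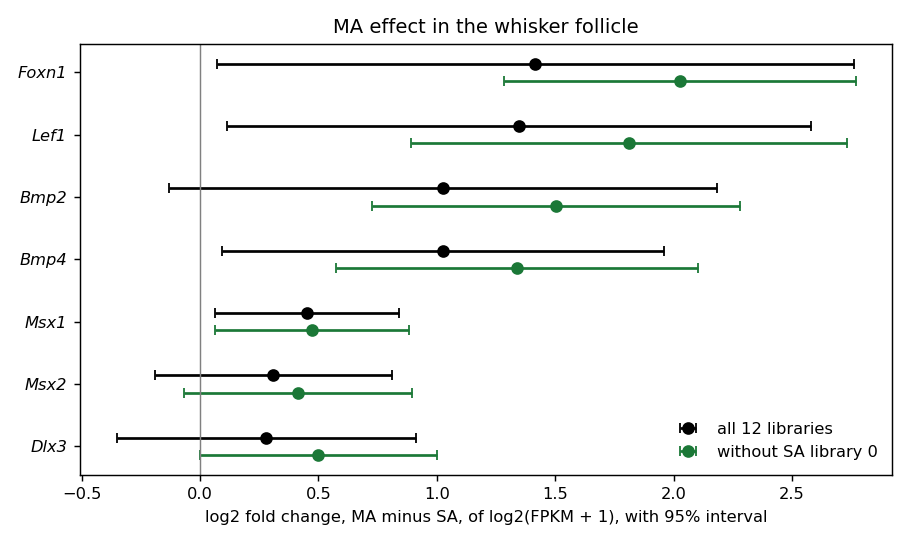
Log2 fold change of MA against SA in the whisker follicle for the 7 members tested, as points with 95% intervals from limma, with all 12 libraries in black and without SA library 0 in green. The interval of Foxn1 runs from 0.07 to 2.76 with all libraries and from 1.28 to 2.77 without that library.

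The log2 fold changes of the homeodomain factors were smaller. Msx1, the lowest of the 7, ran from 1.69 to 3.89 FPKM in SA (median 2.28) and from 2.63 to 5.23 in MA (median 3.52), with a log2 fold change of 0.45 ± 0.18 (SE, n = 6 and 6, limma adjusted p = 0.465, exact permutation p = 0.0303). All 6 MA libraries lay above the SA median, and SA library 0, at 2.59 FPKM, lay within the range of the other SA libraries. The difference was 0.47 ± 0.19 (limma adjusted p = 0.0849, exact permutation p = 0.0455) when that library was left out. The steps of the table put the fewest whole fragments behind Msx1 at 14 to 25 per SA library and 21 to 55 per MA library, with no value more than 0.0457 from a whole number.

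Msx2 and Dlx3, which are needed for the hair shaft to form properly, were the most abundant members. The FPKM of Msx2 ran from 87.7 to 214 in SA (median 161) and from 144 to 249.9 in MA (median 177). That of Dlx3 ran from 116 to 403 in SA (median 178) and from 173 to 342 in MA (median 223). The groups overlapped widely. The log2 fold change of Msx2 was 0.31 (95% interval -0.19 to 0.81, limma adjusted p = 0.525, exact permutation p = 0.247), and that of Dlx3 was 0.28 (95% interval -0.35 to 0.91, limma adjusted p = 0.635, exact permutation p = 0.394). With SA library 0 left out they were 0.41 (limma adjusted p = 0.183) and 0.50 (limma adjusted p = 0.127). A fold of 1.5 equals 0.58 on this scale and lay within all 4 intervals, so a difference of that size could not be detected or set aside.

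Shh and Wnt10b were too low for the test across all genes. Shh ran from 0 to 0.601 FPKM in SA (median 0.285) and from 0.425 to 1.07 in MA (median 0.545), which corresponds to 0 to 6 and 3 to 14 whole fragments per library, or 17 in all SA libraries together and 38 in all MA libraries. The difference on the log2 scale was 0.33 (exact permutation p = 0.0433, unadjusted) and 0.34 without SA library 0 (p = 0.0584, exact permutation test). Wnt10b, a Wnt ligand of the follicle, ran from 0.348 to 0.811 FPKM in SA (median 0.447) and from 0 to 0.651 in MA (median 0.418), with 4 to 9 and 0 to 11 fragments. It was the only member with a difference below 0 (-0.14, exact permutation p = 0.333). With so few fragments, no difference in Wnt10b was detectable.

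**Figure D3:**
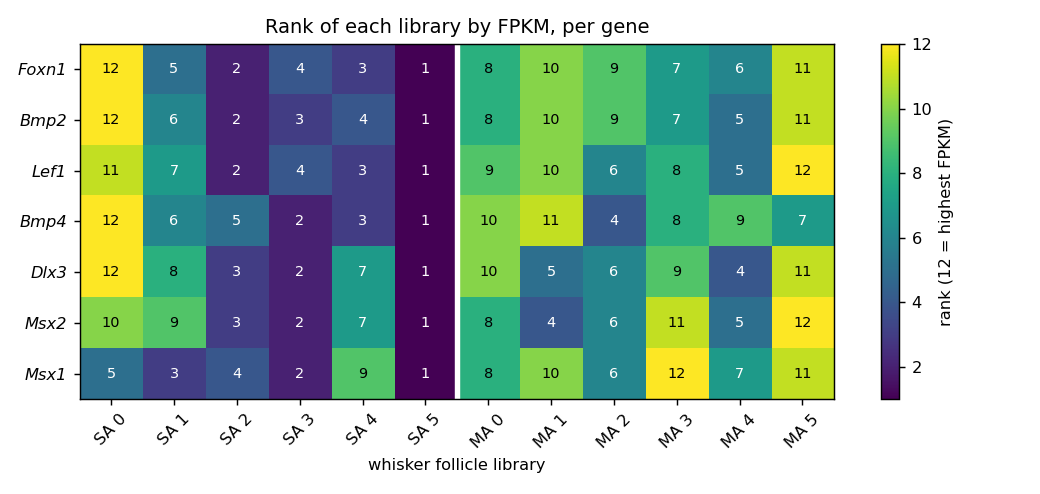
Rank of the 12 whisker follicle libraries by FPKM for each of the 7 members tested, from 1 (lowest, dark) to 12 (highest, bright), with SA libraries to the left and MA libraries to the right of the white line. SA library 5 holds rank 1 in all 7 rows, and SA library 0 holds rank 12 in 4 of them.

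Members varied together over the 12 libraries. Spearman's rho of FPKM was 0.986 between Bmp2 and Foxn1, 0.944 between Bmp2 and Lef1, 0.937 between Foxn1 and Lef1, and 0.944 between Msx2 and Dlx3, all over 12 libraries. Over all 21 pairs of members the lowest values were 0.510, for Bmp4 with Msx1 and with Msx2, and Msx1 ran from 0.510 to 0.622 with the other members. When SA library 0 was left out, Bmp2 with Foxn1 stood at 0.982 and Msx2 with Dlx3 at 0.964, Msx1 ran from 0.655 to 0.718, and the lowest pair was Bmp4 with Msx2 at 0.445. These points share their libraries, and the pattern is not particular to the hair matrix genes: 14.4% of all 9138 rows had a rho above 0.8 with Foxn1 and as many with Bmp2, 11.2% with Lef1, 4.93% with Dlx3, 4.02% with Msx2, 1.06% with Bmp4 and 0.208% with Msx1.

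The 3 rows whose pattern over the libraries was most like that of each member are given as a description. Foxn1 ranked the libraries in the same order as Ndufs1, a subunit of respiratory complex I (rho = 1, n = 12), and nearly so as the elongation factor gene Eef2 and the exocyst gene Exoc4 (0.993 each). Bmp2 was closest to Atp6v0a2 and Brd1 (1 each) and Srpr (0.993), and Lef1 to Rbms1 (0.986), Ptpn13 and Tjp1 (0.979 each). Bmp4 was closest to Orai2 (0.958), Kif3b (0.951) and Cdc14a (0.923). Msx2 was closest to RGD1308706 (0.993), Gprc5d (0.979), a receptor gene of hair shaft cells, and Tmem181 (0.972), while Dlx3 was closest to Slco5a1 (0.993), Insig1 and Pdlim2 (0.986 each). Msx1 was closest to Psmd2 (0.881), Rdh10 and Mapk12 (0.860 each).

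The other genes of the pathways were taken from lists of known components, and none of the listed genes was differentially expressed with all 12 libraries. Of the BMP genes, 4 of 4 further ligands tested, 4 of 7 receptors and Smads and 6 of 6 inhibitors lay above 0, with medians of 0.25, 0.10 and 0.42 on the log2 scale. Bambi, a decoy receptor for BMP, averaged 279 ± 106 FPKM in the SA libraries and 422 ± 98.4 FPKM in the MA libraries (SD, n = 6 and 6), a log2 fold change of 0.66 ± 0.26 (SE, limma adjusted p = 0.465). Bmp6 stood at 1.10 ± 0.57, the type I receptor gene Acvr1 at 1.15 ± 0.50 and Smad5 at 0.55 ± 0.25, each with a limma adjusted p of 0.465. The BMP targets were split: Id2 (0.72 ± 0.29) and Gata3 (0.82 ± 0.40) lay above 0 and Id3 (-0.24 ± 0.20) and Id1 (-0.26) below. The differentially expressed genes of these lists without SA library 0 were Bmp6, Bmpr2, Acvr1, Smad5, Bambi, Twsg1 and Gata3, all higher in MA (1 of 4 ligands, 3 of 7 receptors and Smads, 2 of 6 inhibitors and 1 of 5 targets), where 7.41% of all rows were called higher and 13.5% either way. With an adjusted p under 0.05 but short of the fold were Bmp7 and Smad7 above 0 and Id1 and Id3 below 0.

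Of the Wnt genes, 6 of 9 further ligands, 14 of 17 receptors and effectors, 6 of 6 inhibitors and 3 of 5 targets lay above 0, with medians of 0.10, 0.15, 0.26 and 0.05. Ctnnb1, which encodes beta-catenin, averaged 150 ± 128 FPKM (SA) and 265 ± 68.0 FPKM (MA) (log2 fold change 1.16 ± 0.44, limma adjusted p = 0.465), and the receptor gene Fzd1 was at 19.2 ± 3.16 and 27.4 ± 5.18 (0.48 ± 0.14, limma adjusted p = 0.465). Among the targets, Ccnd1, which encodes cyclin D1, averaged 17.2 ± 4.18 FPKM (SA) and 11.9 ± 1.19 FPKM (MA) (-0.47 ± 0.14, limma adjusted p = 0.465), and the feedback inhibitor Nkd2 also lay below 0 (-0.43 ± 0.18). Values above 0 in Lef1 and Ctnnb1 therefore stood beside values below 0 in these target genes. Without SA library 0, Ctnnb1, Lrp6, Lgr4, Dkk4 and Rnf43 were differentially expressed and higher in MA (0 of 9 ligands, 3 of 17 receptors and effectors, 1 of 6 inhibitors and 1 of 5 targets, against 7.41% of all rows). Among the targets in that fit, Ccnd1 (-0.56, limma adjusted p = 0.0200) and Nkd2 (-0.584, 0.0203) lay below 0 and fell short only of the fold of 1.5.

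**Figure D4:**
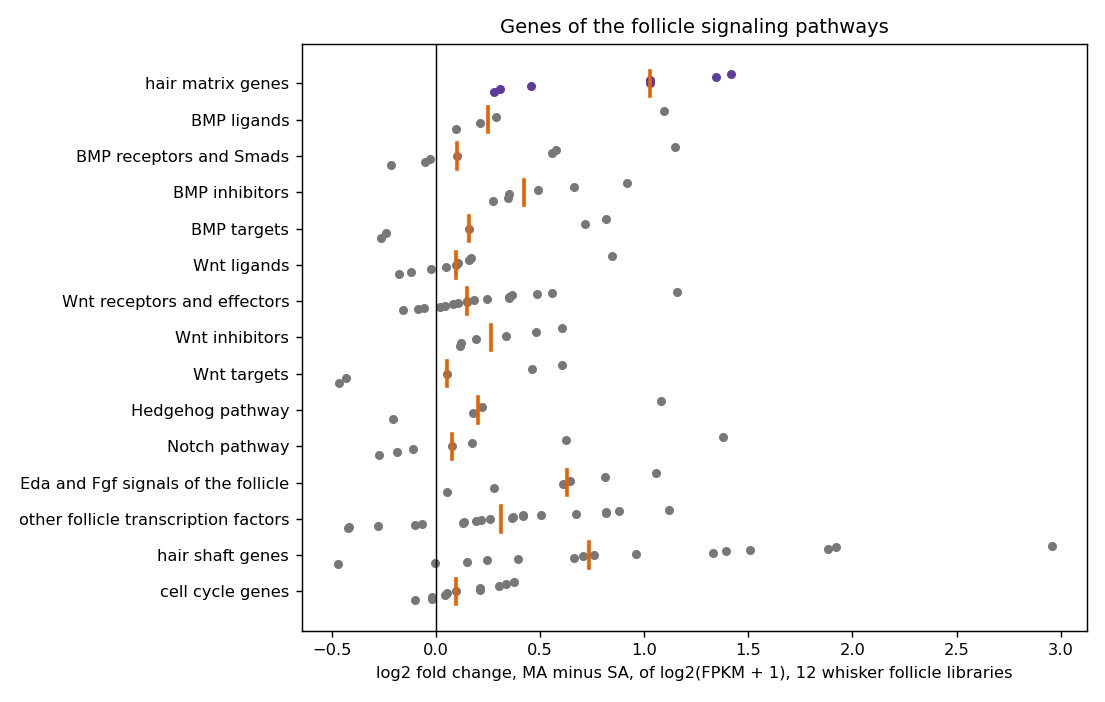
Log2 fold change of MA against SA over the 12 whisker follicle libraries for each gene tested (points) of the hair matrix members (purple) and of 14 other lists (grey), with the median of each list in orange. The row that joins Krt31 and Krt33a with Krt33b and Krt34 lies off the axis at -12.06 and counts in its list's median, the members have the highest median, 1.03.

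In the other pathways, 3 of 4 hedgehog genes (median 0.20), 4 of 7 Notch genes (0.08) and 6 of 6 Eda and Fgf signals (0.63) lay above 0. The hedgehog transducer Smo stood at 1.08 ± 0.62, the Notch receptor gene Notch3 at 1.38 ± 0.65 and the growth factor gene Fgf18 at 0.81 ± 0.27. Notch2, at -0.28 ± 0.14, lay on the other side. Of 20 other transcription factors of the follicle, 15 lay above 0 (median 0.31), with Dlx2 at 1.12 ± 0.38 and Foxq1 at 0.37 ± 0.13, while Foxe1 stood at -0.42 ± 0.17. The limma adjusted p of each gene in these lists that is named here was 0.465 or above. In the fit without SA library 0, 6 of the 20 factors were differentially expressed, namely Gata3, Dlx2, Vdr, Trps1, Prdm1 and Nfatc1, all higher in MA, against 7.41% of all rows. Tfap2c (-0.581, limma adjusted p = 0.0203) and Foxe1 (-0.535, 0.0270) below 0 and Foxq1 (0.454, 0.0229) above 0 fell short only of the fold. So were Notch3 (1 of 7 Notch genes), Fgf18 and Fgfr3 (2 of 6 Eda and Fgf signals), while 0 of 4 hedgehog genes passed.

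Hair shaft genes, the keratins and related genes of the growing hair, lay above 0 for 13 of 16 tested (median 0.73). Krt84 averaged 236 ± 479 FPKM (SA) and 659 ± 601 FPKM (MA) (log2 fold change 2.96 ± 0.95, limma adjusted p = 0.465), and Krt36 was at 414 ± 441 and 952 ± 468 (1.51 ± 0.51, limma adjusted p = 0.465). A row that joins Krt31 and Krt33a with Krt33b and Krt34 held 0 in the 6 MA libraries and a mean of 21685 ± 16485 FPKM (SD) in SA. These near-identical copies can share reads, so the row is uncertain. Its log2 fold change was -12.06 (limma adjusted p = 0.340) with all libraries and -14.48 (limma adjusted p = 8.17e-12) without SA library 0. As the MA values were all 0, these log2 fold changes place SA library 0 at the level of the MA libraries in this row. It thus lay far below the mean of the other SA libraries. Without SA library 0, 7 of 16 hair shaft genes were higher and this row lower in MA, against 7.41% of all rows higher and 13.5% either way. Inner root sheath genes were split (5 of 8 above 0, median 0.11), as were outer root sheath and epidermal genes (6 of 9, median 0.09), and 8 of 11 cell cycle genes lay above 0 (median 0.10) with none differentially expressed in either fit. In the fit without SA library 0, Krt26 and Tgm3 of the inner root sheath list and the Krt16 row and Krt75 of the outer root sheath list were higher in MA. Markers of fibroblasts, at 7.23 to 18.5 FPKM summed in SA and 12.5 to 33.6 in MA, lay above 0 for 4 of 4 tested (median 0.42), and their part in the members' values was not tested.

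The striatum served as the contrast. Expression there was measured in 12 libraries, and 5 members (Bmp2, Bmp4, Shh, Msx1 and Lef1) passed the filter. None was differentially expressed, against 0.00943% of 10607 rows (1 row). The log2 fold change was -0.39 for Bmp2 (limma adjusted p = 0.620), -0.80 for Bmp4 (0.703), -0.44 for Shh (0.629), -0.20 for Msx1 (0.881) and 0.24 for Lef1 (0.742). Hence 4 of the 5 lay below 0, where 50.5% of all 10607 rows lay above 0. In the follicle all 7 members tested lay above 0, but that set held Foxn1, Dlx3 and Msx2 and not Shh. These counts therefore do not compare the tissues.

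Bmp4 ran from 0.395 to 8.40 FPKM in SA (median 5.76) and from 0.322 to 7.003 in MA (median 2.57). It fell into 4 low libraries, MA libraries 0, 2 and 5 and SA library 1, at 0.322 to 0.641 FPKM, and 8 libraries at 3.57 to 8.40. Shh ran from 0.479 to 3.12 FPKM in SA (median 1.56), or 10 to 70 whole fragments, and from 0.447 to 1.05 in MA (median 0.894), or 10 to 22 fragments. No MA library exceeded the SA median of Shh, but the groups overlapped (exact permutation p = 0.108). Msx1 was at 0.311 to 4.07 FPKM in SA and 0.277 to 2.40 in MA, Bmp2 at 3.36 to 8.003 and 2.04 to 5.23, and Lef1 at 1.91 to 4.01 and 2.58 to 6.34.

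Whether MA and SA differed otherwise in the follicle than in the striatum was tested directly as an interaction. No member passed, against 0.00867% of 11533 rows (1 row). The interaction was 0.77 for Shh (unadjusted p = 0.00917 and adjusted p = 0.433 in limma), 1.82 for Bmp4, 1.42 for Bmp2, 1.42 for Foxn1, 1.11 for Lef1 and 0.65 for Msx1, with an adjusted p of 0.433 or above for each. All 8 members tested lay above 0, but Foxn1, Dlx3 and Msx2 passed the filter only through the follicle and Shh only through the striatum. The follicle mean of Shh was 0.473 FPKM, at 0 to 6 whole fragments per SA library and 3 to 14 per MA library. Its interaction therefore rests on few follicle fragments. The striatal means of Foxn1, Dlx3 and Msx2 were 0.0027, 0.0071 and 0.316 FPKM. The interaction of Foxn1 (1.42) and Dlx3 (0.30) therefore repeats their follicle log2 fold change (1.42 and 0.28) and does not compare the tissues. Without follicle SA library 0, the interaction passed for Foxn1 (2.03, limma adjusted p = 0.00614), Bmp2 (1.89, 0.0116), Lef1 (1.58, 0.0329) and Bmp4 (2.14, 0.0436), with 10.8% of 11527 rows (1241 rows) doing so. That of Foxn1 again repeats its follicle value.

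**Figure D5:**
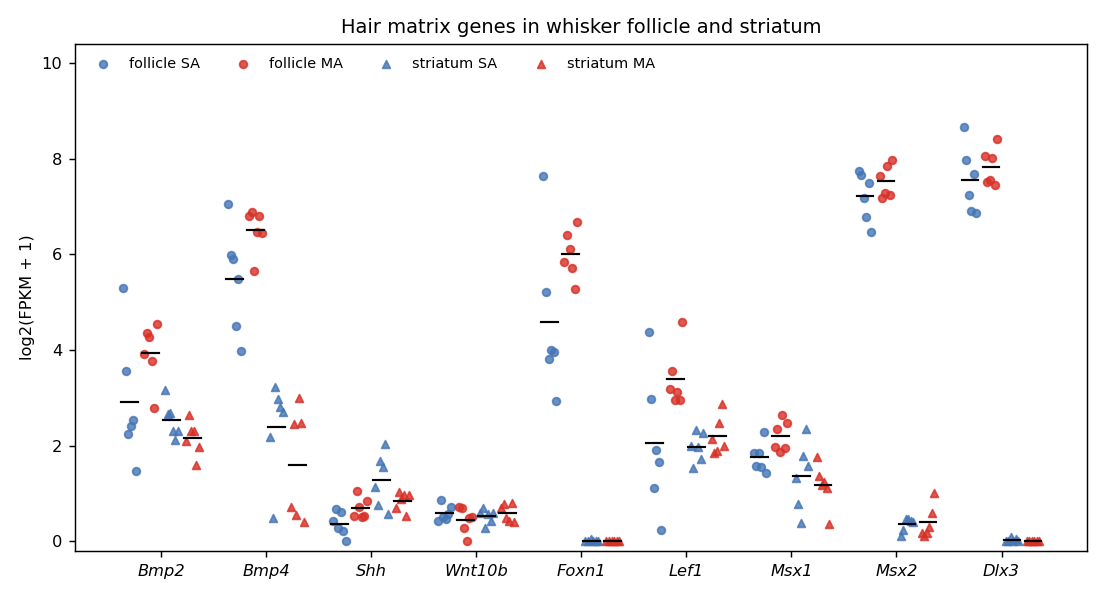
Level of 9 hair matrix genes as log2(FPKM + 1) in whisker follicle (circles) and striatum (triangles) libraries, with SA in blue, MA in red and black lines at the mean of 6 libraries. Foxn1 and Dlx3 lie at or near 0 in the striatum, whereas Bmp2, Lef1 and Msx1 overlap between the tissues.

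The levels of the members were also compared between the tissues of SA rats. In this comparison 75.1% of 11509 rows were differentially expressed and 31.5% were higher in the follicle. Dlx3, Msx2, Foxn1 and Bmp4 were higher there, by 7.54 ± 0.25, 6.87 ± 0.20, 4.58 ± 0.59 and 3.09 ± 0.53 on the log2 scale (SE, n = 6 and 6), with limma adjusted p-values of 2.86e-12, 6.75e-13, 5.96e-06 and 9.49e-05. In the 12 striatum libraries Dlx3 was above 0 in 2 and Foxn1 in 1, while Msx2 ran from 0.0783 to 1.02 FPKM. Dlx3, Foxn1 and Msx2 passed the filter only through the follicle. Their direction therefore follows from the filter, and their p-values are no test of it. Shh was lower in the follicle than in the striatum (-0.92 ± 0.23, limma adjusted p = 0.00214), but it passed the filter only through the striatum. In MA rats its means were 0.637 FPKM in the follicle and 0.810 in the striatum. No scaling between the tissues was applied, though a fragment was worth 2.54 times as much FPKM in follicle SA library 0 as in striatum SA library 0. The part of scaling in these differences was not tested. Bmp2 (0.38, 95% interval -0.70 to 1.46), Msx1 (0.39, -0.22 to 1.00) and Lef1 (0.08, -1.07 to 1.23) were not differentially expressed between the tissues, with limma adjusted p-values of 0.488, 0.212 and 0.890, and their intervals were wide. The sign turned for Bmp2 (-0.10) and Lef1 (-0.39) without follicle SA library 0. Wnt10b lay at 0.205 to 0.737 FPKM in the striatum and at 0 to 0.811 in the follicle, and was not tested between them.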

How the data were processed

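RNA-seq was performed on 24 libraries. The authors deposited 1 table of FPKM values. Per the methods, reads of poly-A libraries (unstranded kit) were trimmed with Cutadapt, aligned to rn6 with TopHat2 and quantified with Cufflinks. In the submitters' processing notes, the tools are STAR 2.6.0c, Cufflinks 2.2.1 and bcl2fastq. Neither the annotation nor a scaling between libraries is given in the sources used here. Without strand, reads of overlapping antisense genes cannot be told apart. The authors' test, Cuffdiff, needs reads and was not used.

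Columns were grouped by the tissue and treatment in their names. MA and SA were compared by limma 3.58.1 (R 4.3.3; intensity trend) on log2(FPKM + 1) over rows whose mean FPKM reached 1 in the tissue (in either tissue for the interaction and the tissue comparison), with Benjamini-Hochberg adjustment over all rows tested. Differential expression required an adjusted p under 0.05 together with a change of 1.5-fold or more. Members were also compared by a two-sided exact permutation test over all 924 assignments of libraries, not adjusted over members. Relative depth was the modal ratio of values under 0.1 FPKM between libraries of a tissue (within 0.01 on the log2 scale of the mode for 50.6% to 70% of follicle rows and 41.5% to 49.3% of striatum rows), and fragments are the smallest whole numbers that match all libraries within 0.1. Relative depth follows sequencing depth only if values were not scaled between libraries. Fragment numbers carry counting error only, and values without them have no stated depth.

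Members and lists were chosen with earlier results of these data known. Genes named are all members, up to 3 genes with the smallest p of each list and, for each member tested, the 3 rows with the highest Spearman correlation; other genes named were chosen after their values were seen. The tests were tried on simulated data. Alternatives were leaving out each library, library weights, no trend, a common median or quantile normalization, a minimum mean FPKM of 5 or none, pseudocounts of 0.1 and 0.5, and other call rules. Those that leave out SA library 0 together with another change were added after seeing the data. A gene of the marker lists is not reported here.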

Additional observations from a re-analysis of the deposited data

Results flagged for a closer look

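Among 34 groups of 6 libraries checked for a library far from the others, 5 values stood out. The cut-off is meant to flag about 1 in 20 groups by chance, for independent groups with a normal spread. These members vary together and FPKM values are skewed, so the number expected here is not known. In the whisker follicle, SA library 0 stood out for Foxn1 (198 FPKM), Bmp2 (38.4 FPKM) and Lef1 (19.9 FPKM), each far above the other SA libraries. MA library 5 stood out for Lef1 (23.1 FPKM). In the striatum, Foxn1 was listed at 0.0325 FPKM in SA library 2 and at 0 in the other SA libraries. A lone value above 0 always stands out by this rule.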

How the results depend on the processing

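No paired analysis was possible because the columns carry an index of 0 to 5 that is not tied to the rat numbers. The number of differentially expressed rows in the follicle, 0 with all libraries, was 1160 with weighted libraries, which also called Foxn1, Lef1, Bmp2 and Bmp4, and 336 by unadjusted p with the fold. Leaving out 1 library gave 0 to 1219, the highest without SA library 0. Without SA library 0 it was also 984 after quantile normalization (which also called Dlx3), 1229 with a common median, 1201 with no trend and 1308 with a pseudocount of 0.1, and it was 326 without SA libraries 0 and 5. In the striatum, 1 row became 0 at a mean FPKM of at least 5, 62 by unadjusted p with the fold and 0 to 4 when leaving out 1 library, the highest without MA library 5. The interaction gave 2 rows with a pseudocount of 0.1, 3 with no filter, 0 at a mean FPKM of at least 5 and 1 to 1241 when leaving out 1 library. The number of rows differing between the tissues stayed within 6752 to 9788. The cause of these changes was not tested.

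For the members, 722 alternatives over 34 results left 690 on the same side of the threshold with the same direction, 15 newly past it, 7 no longer past it and 10 reversed. The 7 were Shh in the follicle, whose exact permutation p ran from 0.0238 to 0.0844. Reversed were Msx1 in the striatum with weighted libraries (0.040), Lef1 between the tissues with a pseudocount of 0.1 (-0.19) or 0.5 (-0.010) and when leaving out 1 library (-0.39 to 0.44), Bmp2 between the tissues when leaving out 1 library (-0.10 to 0.67), and Msx2 in the striatum with a pseudocount of 0.1 (-0.0061) and when leaving out 1 library (-0.083 to 0.096). Quantile normalization, a common median and weights were not run for the interaction or the tissues. Shh, Wnt10b and Msx1 rest on few fragments, which limits what they can show.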
